A study of Mus musculus with 5 samples.

Results

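Among the 736 mature miRNAs in the deposited counts of mouse testis, 5 entries were examined by name for whether their counts behave like those of a miRNA. They are mmu-miR-5109, mmu-miR-1194, mmu-miR-1195, mmu-miR-3470b and mmu-miR-3471, written below without the species prefix. They were picked by name with their sequences, shares and genotype differences already known, so these values are given as a description, with no test. All 5 were found, and all 5 were among the 246 miRNAs abundant enough to enter the genotype fit, which leaves 241 others for comparison. Small RNA was sequenced from testes of C57BL/6 mice aged 6 months, in 2 wild-type libraries and 3 Mtdh-/- libraries. Mtdh encodes metadherin, and its exon 3 is missing in the Mtdh-/- mice. The labels give no other allele or agent and do not say whether the libraries of a genotype came from separate animals, so the spread between them may be technical.

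A miRNA is cut from a hairpin precursor by Drosha and then Dicer, which leaves a short RNA with a well-defined 5′ end. The bases just after that end, the seed, pair with target mRNAs, so a shift of the start gives another seed. Some database entries lie instead in repeats or share sequence with abundant structural RNAs, and fragments of many other transcripts can then be counted under their name. The testis also makes piRNAs, which are longer than miRNAs, are not cut by Dicer and bind PIWI proteins in germ cells. miR-3470b and its near copy miR-3470a resemble the B1 short interspersed repeat, the rodent repeat related to 7SL RNA, and miR-1195 resembles the other strand of the same repeat. The 3′ part of miR-5109 also occurs in 28S ribosomal RNA, whose sequence was not searched here.

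For each entry the deposited sheet gives the mature sequence and the single most abundant sequence counted. Both are shown so that their starts, lengths and bases can be compared. In the mature sequences capitals mark the seed, bases 2 to 8. In the most abundant sequences capitals mark the longest run shared with the mature sequence.
miR-5109 mature: tGTTGCGGaccaggggaatccga
miR-5109 most abundant: aactggTGCGGACCAGGGGAATCCGAct
miR-1194 mature: gAATGAGTaactgctagatcct
miR-1194 most abundant: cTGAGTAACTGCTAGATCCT
miR-1195 mature: tGAGTTCGaggccagcctgctca
miR-1195 most abundant: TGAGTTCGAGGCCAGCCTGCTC
miR-3470b mature: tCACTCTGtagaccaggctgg
miR-3470b most abundant: cTCACTCTGTAGACCAGGC
miR-3471 mature: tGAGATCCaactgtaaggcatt
miR-3471 most abundant: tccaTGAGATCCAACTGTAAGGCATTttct

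The most abundant sequence of 4 of the 5 entries did not begin where the mature miRNA begins. That of miR-5109 started 3 bases upstream, ran to 28 bases against 23, and carried T3G, counted from 1 at the mature 5′ end with the mature base first. That of miR-1194 started 2 bases downstream, had 20 bases against 22, and carried A3C. For miR-3470b the start lay 1 base upstream and the length was 19 bases against 21. For miR-3471 the start lay 4 bases upstream and the length was 30 bases against 22, the full mature miRNA with extra bases at both ends. The authors' normalized sheet names a 16-base sequence within the mature miRNA instead. The start, length and bases 2 to 8 given here for miR-3471 are those of the 30-base sequence alone. Only miR-1195 kept the mature start, and its most abundant sequence lacked the last base, 22 against 23. Bases 2 to 8 therefore differed from the annotated seed in 4 entries: ACTGGTG against GTTGCGG in miR-5109, TGAGTAA against AATGAGT in miR-1194, TCACTCT against CACTCTG in miR-3470b, and CCATGAG against GAGATCC in miR-3471. No seed was shared between any pair of the entries.

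**Figure D1:**
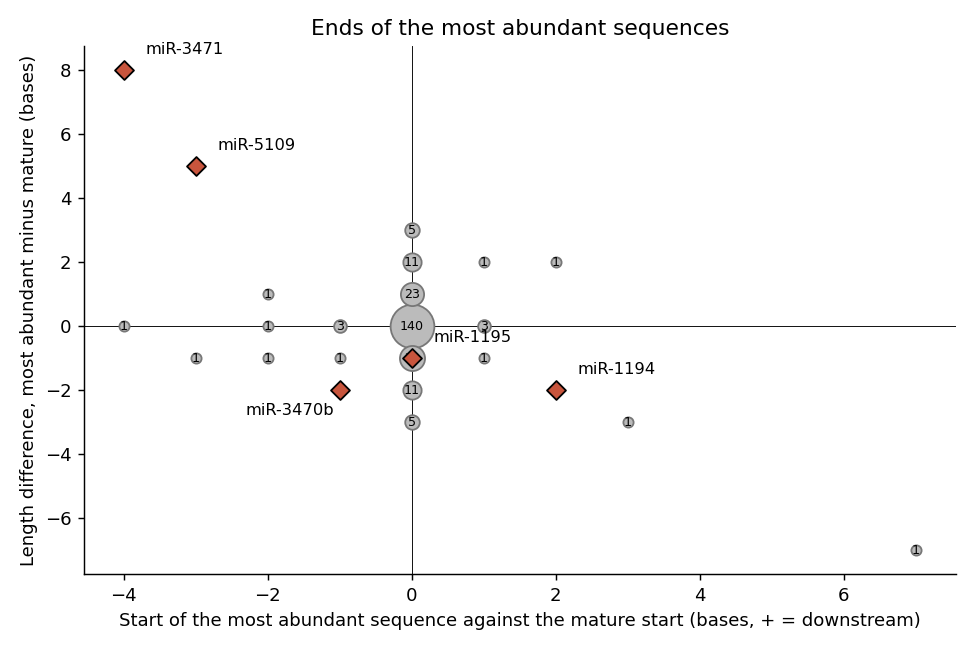
Start of the most abundant sequence against the mature start (x axis, bases) and its length minus the mature length (y axis, bases). Grey circles give the number of other tested miRNAs at each position, 140 of them at the origin, and red diamonds mark the 5 entries, of which only miR-1195 sits on the vertical line of an unshifted start. The diamond of miR-3471 is that of its 30-base sequence.

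Of the 241 other tested miRNAs, 224 (92.9%) had a most abundant sequence that began at the mature start, 9 began upstream and 8 downstream. Start and length both equalled those of the mature miRNA in 140 of them. A substitution against the mature sequence was present in 9 others, and a single one had a most abundant sequence of 28 bases or longer. The most abundant sequences of the others had a median length of 22 bases and quartiles of 21 and 23. The start of the 30-base sequence of miR-3471, 4 bases upstream, equalled the farthest upstream start among the others, that of miR-881-5p.

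Few or no counts were listed for the exact mature sequence in all 5 entries. miR-3470b, the most abundant of them, had 1347 counts of all isoforms over the 5 libraries. Of these, 6 were listed as exactly the mature sequence, 2 each in wild type 2, Mtdh-/- 1 and Mtdh-/- 3. That is 0.445% of its counts (95% Wilson interval 0.204 to 0.968%), or 0.390% ± 0.421 as a mean over libraries (SD, n = 5). miR-1195 had 3 exact mature counts of 351, all in wild type 2, which is 0.855% (0.291 to 2.48%), or 0.265% ± 0.594 as a mean over libraries (SD, n = 5). No count of the exact mature sequence was listed for miR-5109 (of 238 counts), miR-1194 or miR-3471 (of 97). The smallest count listed in the sheet is 2, so a single count per library could be missing. With 1 unlisted count in each library the shares would be 2.10% for miR-5109, 2.24% for miR-1194 and 4.12% for miR-3471. These are not upper limits, because more counts can be unlisted. In miR-410-3p and miR-369-3p the most abundant sequence is the mature one, with 74 and 61 counts, but the exact mature count is listed as 0. A listed 0 thus does not show that the mature sequence was absent. The intervals cover counting error only.

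Among the 241 others the counts listed for the exact mature sequence made up a median of 35.4%, with quartiles of 13.1 and 55.5%. The entries were not alone at the bottom of that range. An exact mature count of 0 was listed for 17 others (7.05%), and 21 (8.71%) were under 1%. Those 21 included well-known miRNAs such as miR-200b-3p (0 of 419) and miR-30e-5p (129 of 13627), whose most abundant sequences started at the mature start. They also included miR-5099 (2 of 1920), miR-5097 (0 of 321) and miR-3470a (6 of 1644). An exact mature share listed as 0 or under 1% thus also occurred where the start was that of the annotated miRNA. In some of the 17, such as miR-369-3p, miR-410-3p and miR-872-3p, the most abundant sequence was itself the mature one. For these the listed 0 does not mean that the mature sequence was missing.

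**Figure D2:**
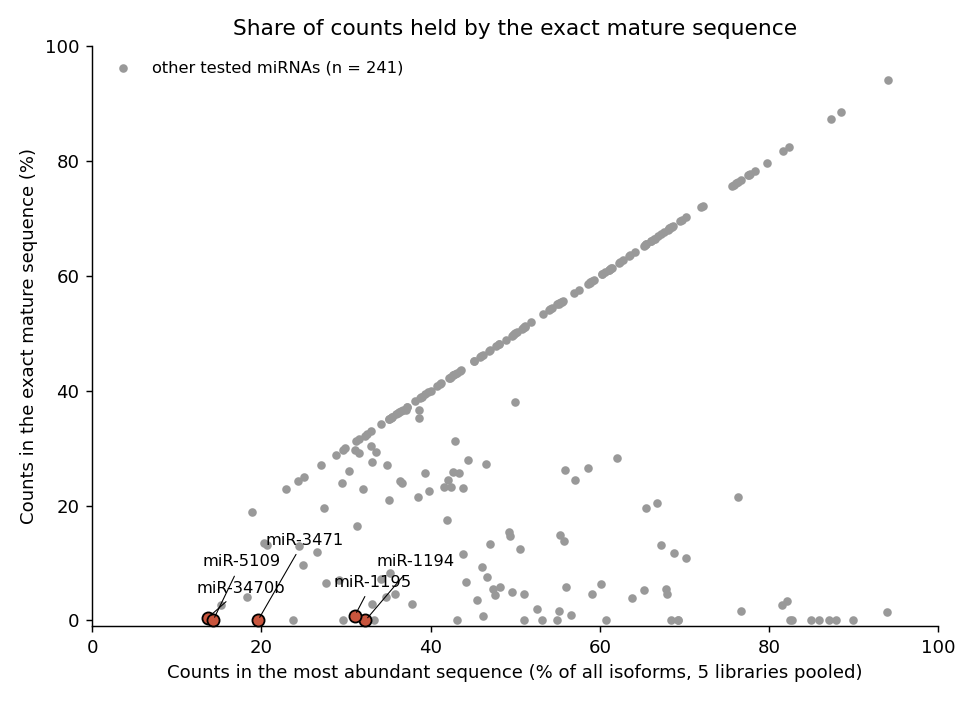
Share of each tested miRNA's counts in the exact mature sequence (y axis, %) against the share in its most abundant sequence (x axis, %), 5 libraries pooled. Points on the diagonal have equal shares, in most cases because the most abundant sequence is the mature one. Some such miRNAs, among them miR-410-3p, lie on the floor because their exact mature count is listed as 0. The 5 entries (red) lie on the floor at the left, from 13.7% for miR-3470b to 32.3% for miR-1194 on the x axis.

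The most abundant sequence did not take up most of the counts either. In miR-3470b it held 184 of 1347 counts, 13.7% (11.9 to 15.6%), with a mean over libraries of 13.6% ± 4.57 (SD, n = 5), below the lowest value among the 241 others, 13.99% in miR-3470a. In miR-5109 it held 34 of 238, 14.3% (10.4 to 19.3%), and in miR-3471 19 of 97, 19.6% (12.9 to 28.6%). miR-1194 with 72 counts, 32.3% (26.5 to 38.7%), and miR-1195 with 109 of 351, 31.1% (26.4 to 36.1%), were higher. The median over the others was 49.8%, with quartiles of 38.1 and 64.2%. The counts listed neither as the mature nor as the most abundant sequence made up 85.9% in miR-3470b, 85.7% in miR-5109 and 80.4% in miR-3471. They made up 68.1% in miR-1195 and 67.7% in miR-1194. The sheet does not list their sequences.

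Between libraries the share of the most abundant sequence moved most in miR-5109. It was 4 of 7 counts in wild type 1, 0 of 13 in wild type 2, 14 of 151 in Mtdh-/- 1, 7 of 12 in Mtdh-/- 2 and 9 of 55 in Mtdh-/- 3. In percent these are 57.1, 0, 9.27, 58.3 and 16.4, a mean of 28.2% ± 27.6 (SD, n = 5). High and low shares occurred in both genotypes, and both of the high ones rest on 12 counts or fewer. In miR-1195 4 of the 5 libraries had between 30 and 30.8%, and wild type 1 had 5 of 7 counts, 71.4% (35.9 to 91.8%), giving a mean of 38.6% ± 18.4 (SD, n = 5). The other means were 34.5% ± 15.2 in miR-1194 (SD, n = 5) and 19.7% ± 15.03 in miR-3471 (SD, n = 4 libraries with a count).

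Exact matches were sought in the 141767 transcripts of 55450 genes of the GENCODE M21 annotation (build GRCm38). The sequences of miR-3470b were the most widespread. Its mature sequence occurred on the same strand in transcripts of 591 genes and on the opposite strand in 504, and its most abundant sequence in 678 and 555. Of the 678 genes, 452 were protein coding, 101 long noncoding and 45 annotated as miRNA genes. miR-3471 was found in fewer genes, 86 on the same and 27 on the opposite strand for the mature sequence, and 52 of the 86 were annotated as miRNA genes. A count of any of these sequences cannot be assigned to 1 locus by its letters, and the unlisted sequences of both entries could not be searched.

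As in miR-3470b, the most abundant sequence of miR-1194 and miR-1195 occurred in more genes than the mature one, by a wide margin in miR-1194 and by a few genes in miR-1195. The mature sequence of miR-1194 occurred in transcripts of 0 genes, so no annotated miRNA gene held it either. Its most abundant sequence, which lacks the first 2 bases and carries A3C, occurred in 159 genes on the same strand and in 11 on the opposite strand. The 159 were 62 long noncoding, 48 protein coding, 45 annotated as miRNA genes and 4 others. The part of each change in this rise was not tested. The mature sequence of miR-1195 occurred in 1 gene, a miRNA gene, and its most abundant sequence, 1 base shorter, in 6 genes on the same strand and 3 on the opposite strand. Any match of the mature sequence is also a match of this shorter one, so its number of genes could not be lower. Neither sequence of miR-5109 occurred in any annotated transcript on either strand. Among the 241 others the median was 1 gene, and 5 of them (2.075%) had a most abundant sequence in over 10 genes on the same strand.

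**Figure D3:**
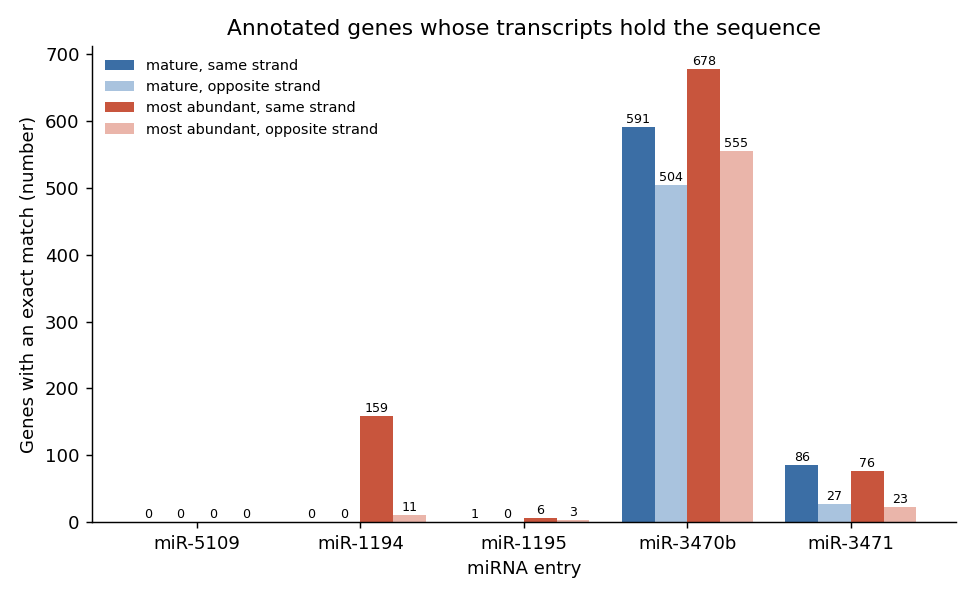
Number of GENCODE M21 genes with an exact match to the mature (blue) or most abundant (red) sequence of each entry, on the same strand (dark) or the opposite strand (light). The bars of miR-3470b reach 504 to 678 genes, miR-1194 has 159 genes for its most abundant sequence and 0 for its mature one, and miR-5109 has 0 throughout.

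RefSeq sequences (GRCm38.p6) were at hand for 3 of the 5 entries, miR-1195, miR-3470b and miR-3471, and their mature sequences equalled the deposited ones. Those of miR-5109 and miR-1194 were not compared. The mature sequence of miR-1195 lies at chr17:70860558-70860580 on the minus strand. Its hairpin lies in an intron of Gm9320, a pseudogene transcribed from the other strand. That of miR-3470b lies at chr16:44013885-44013905 on the plus strand, its hairpin in an intron of Gramd1c, which is transcribed from the other strand and encodes a sterol-binding GRAM domain protein. Of the pair of hairpins of miR-3471, Mir3471-1 lies at chr4:10845500-10845630 on the minus strand and Mir3471-2 at chr4:3537090-3537191 on the plus strand, and no other annotated gene overlaps either. The Mir3471-1 hairpin is printed, with the mature miRNA in capitals, because the 30-base sequence runs past both ends of it.
Mir3471-1 hairpin: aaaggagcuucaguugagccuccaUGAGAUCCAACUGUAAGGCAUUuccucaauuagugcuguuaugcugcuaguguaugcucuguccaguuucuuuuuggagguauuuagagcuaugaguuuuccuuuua
Against this hairpin the most abundant sequence of miR-3471 has 1 difference, C48T, counted from the hairpin's 5′ end with the hairpin's base first and U written as T. The sequence of the Mir3471-2 hairpin, whose line was the one kept for the levels, was not compared.

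The sheet gives miR-3471 a line for each hairpin. The line of mir-3471-2 held 13, 62, 11, 0 and 11 counts in wild type 1, wild type 2 and Mtdh-/- 1, 2 and 3. That of mir-3471-1 held 11, 47, 6, 0 and 11, so the lines summed to 97 and 75 counts, and both list the same counts of the most abundant sequence. The authors' normalized sheet names another most abundant sequence for both lines, of 16 bases, which lies wholly within the mature miRNA.
miR-3471 most abundant, normalized sheet: CCAACTGTAAGGCATT
Of the 632 lines with a most abundant sequence, 70 differed in this way between the sheets, and these 2 were the only ones among the lines of the 5 entries. For the 16-base sequence wild type 1 and 2 had 24 and 8 of the authors' normalized tags. Mtdh-/- 3 had 22 and the other two Mtdh-/- libraries 0, so the genotypes overlapped.

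Levels were compared as CPM, in which the counts of the 717 miRNAs kept are scaled to sum to 1000000 in each library. Before scaling the wild-type libraries summed to 198640 and 474839. The sums of Mtdh-/- 1, 2 and 3 were 720259, 118475 and 258433. The 5 entries together made up 0.065 to 0.193% of a library. By comparison miR-10b-5p, the most abundant miRNA, had a mean of 284498 CPM, followed by miR-143-3p with 95200, miR-30a-5p with 46844, miR-16-5p with 44085 and miR-26a-5p with 37411. The 7 miRNAs listed as markers of testis germ cells were all counted, and their summed level was 120696 to 122153 CPM in the wild-type and 47132 to 95112 CPM in the Mtdh-/- libraries. Sertoli-cell markers (2 of 2 counted) summed to 1113 to 2856 CPM in wild type and 1020 to 1899 CPM in Mtdh-/-. In the other lists, 3 of 4 blood markers were in the sheet and counted, at 65.4 to 131 against 58.0 to 253 CPM. Of the striated muscle markers 2 of 3 were in the sheet and counted, at 1386 to 1626 against 270.1 to 1795 CPM. miR-486a-5p of blood and miR-206-3p of muscle were not in the sheet under these names, so the sums do not cover them. Neural markers (1 of 2) gave 463 to 916 against 232 to 339 CPM, epithelial markers (3 of 3) 347 to 518 against 189 to 448.9 CPM, and the liver marker 10.1 to 18.95 against 0 to 42.2 CPM. The part of these differences in the values below was not tested, and in whole testis fewer cells of a type and less RNA per cell cannot be told apart.

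miR-3470b was the highest of the 5 in every library, at rank 93 of the 717 miRNAs by mean level, 774 CPM. The next 3, miR-1195 (162 CPM), miR-1194 (136 CPM) and miR-5109 (117 CPM), overlapped each other over the libraries, and miR-3471, with a mean of 50.8 CPM, overlapped all 3. These levels compare tags of different lengths and are not corrected for length.

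Over all 246 tested miRNAs, edgeR's quasi-likelihood test called 0 higher (0%) and 0 lower (0%) in Mtdh-/- at an adjusted p under 0.05. At an unadjusted p under 0.05 it gave 7, and DESeq2 and limma also called 0 after adjustment. None of the 5 entries was thus called. In 12 of the 246 (4.88%) every Mtdh-/- library lay above both wild types, and in 23 (9.35%) every one lay below. Since the entries were chosen with these differences known, nothing is read from the 1 that lay above and the 3 that lay below. The filter on low counts, which set the 246, asks for a high enough level in only as many libraries as the smaller group holds. miR-5109 (35.2 and 27.4 CPM in wild type) would not have passed on its wild-type libraries alone. miR-3471 (15.3, 0 and 42.6 CPM in Mtdh-/-) would not have passed on its Mtdh-/- libraries alone. Their fold changes are thus not free of the filter.

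miR-5109 was the one that lay above. It had 7 and 13 counts in the wild-type libraries, 35.2 and 27.4 CPM, and 151, 12 and 55 in Mtdh-/- 1, 2 and 3, 209.6, 101 and 213 CPM. The means were 31.3 ± 5.56 CPM (SD, n = 2) and 174.6 ± 63.5 CPM (SD, n = 3), and the fitted log2 fold change was 2.70 (SE 0.83). The groups did not overlap, and the lowest Mtdh-/- library rests on 12 counts. Counted by its most abundant sequence alone the groups overlapped, by a narrow margin. Those levels were 20.1 and 0 CPM in wild type and 19.4, 59.1 and 34.8 CPM in Mtdh-/- (4, 0, 14, 7 and 9 counts). The overlap rests on wild type 1 and Mtdh-/- 1, and the means still differed, at 10.1 ± 14.2 CPM (SD, n = 2) and 37.8 ± 19.99 CPM (SD, n = 3). This sequence had too few counts to be fitted. The authors' deposited tables, whose ratios are of the normalized tags of that sequence after adding 10, list a ratio of 3.33 for Mtdh-/- 2 and 2.21 for Mtdh-/- 3.

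miR-1194 lay below in every Mtdh-/- library. It had 40 and 85 counts in wild type, 201 and 179 CPM, and 55, 12 and 31 in Mtdh-/-, 76.4, 101 and 119.95 CPM. The means were 190.2 ± 15.8 CPM (SD, n = 2) and 99.2 ± 21.9 CPM (SD, n = 3), with a log2 fold change of -0.84 (SE 0.59). Its most abundant sequence alone also did not overlap, at 60.4 and 71.6 CPM against 16.7, 59.1 and 27.1 CPM, although Mtdh-/- 2 with 59.1 was close to wild type 1. For this sequence the fitted log2 fold change was -1.03. Without wild type 1 the value for all isoforms was -0.43 and without Mtdh-/- 3 it was -1.17. The authors' deposited tables list ratios of 0.359 for Mtdh-/- 1, 0.497 for Mtdh-/- 3 and 0.428 for the group of Mtdh-/- 1 and 3, which leaves out Mtdh-/- 2, the last with the authors' p of 0.0306, whose test the file headers leave unnamed.

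miR-3470b also lay below in every Mtdh-/- library, and its counts were the largest of the 5. They were 225 and 530 in wild type, 1133 and 1116 CPM, and 349, 43 and 200 in Mtdh-/-, 485, 363 and 774 CPM. The means were 1124 ± 11.7 CPM (SD, n = 2) and 540.5 ± 211 CPM (SD, n = 3), with a log2 fold change of -0.91 (SE 0.59). By its most abundant sequence the groups overlapped, since wild type 1 had 75.5 CPM and Mtdh-/- 3 had 96.7 CPM. The other libraries had 185 CPM in wild type 2 and 66.6 and 67.5 CPM in Mtdh-/- 1 and 2. The log2 fold change was then -0.61.

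In miR-3471, also below in every Mtdh-/- library, the counts were small. The levels were 65.4 and 131 CPM in wild type and 15.3, 0 and 42.6 CPM in Mtdh-/-, from 13, 62, 11, 0 and 11 counts. The means were 98.0 ± 46.1 CPM (SD, n = 2) and 19.3 ± 21.6 CPM (SD, n = 3). No count was listed in Mtdh-/- 2, the shallowest library. The fitted log2 fold change was -2.02 (SE 1.12). The most abundant sequence had 3 and 12 counts in wild type and 4, 0 and 0 in Mtdh-/-, too few for the fit. The authors' deposited tables list a ratio of 0.385 for Mtdh-/- 1 and for Mtdh-/- 2, the same for both hairpins. These ratios are of the 16-base sequence, which had 0 normalized tags in both libraries.

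In miR-1195 a single library stood apart. It had 226 counts in wild type 2, 476 CPM, and 7 in wild type 1, 35.2 CPM. The Mtdh-/- libraries lay between them, with 82, 10 and 26 counts, 114, 84.4 and 101 CPM. The means were 255.6 ± 312 CPM (SD, n = 2) and 99.6 ± 14.7 CPM (SD, n = 3), the groups overlapped, and the log2 fold change was -0.96 (SE 0.92). Without wild type 2 it was 1.44, with the sign turned, and without wild type 1 it was -1.74. The most abundant sequence showed the same split, with 143 CPM in wild type 2 and 25.2 to 34.7 CPM in the other 4 libraries. The authors' deposited tables list ratios of 0.478, 0.367 and 0.433 for Mtdh-/- 1, 2 and 3.

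**Figure D4:**
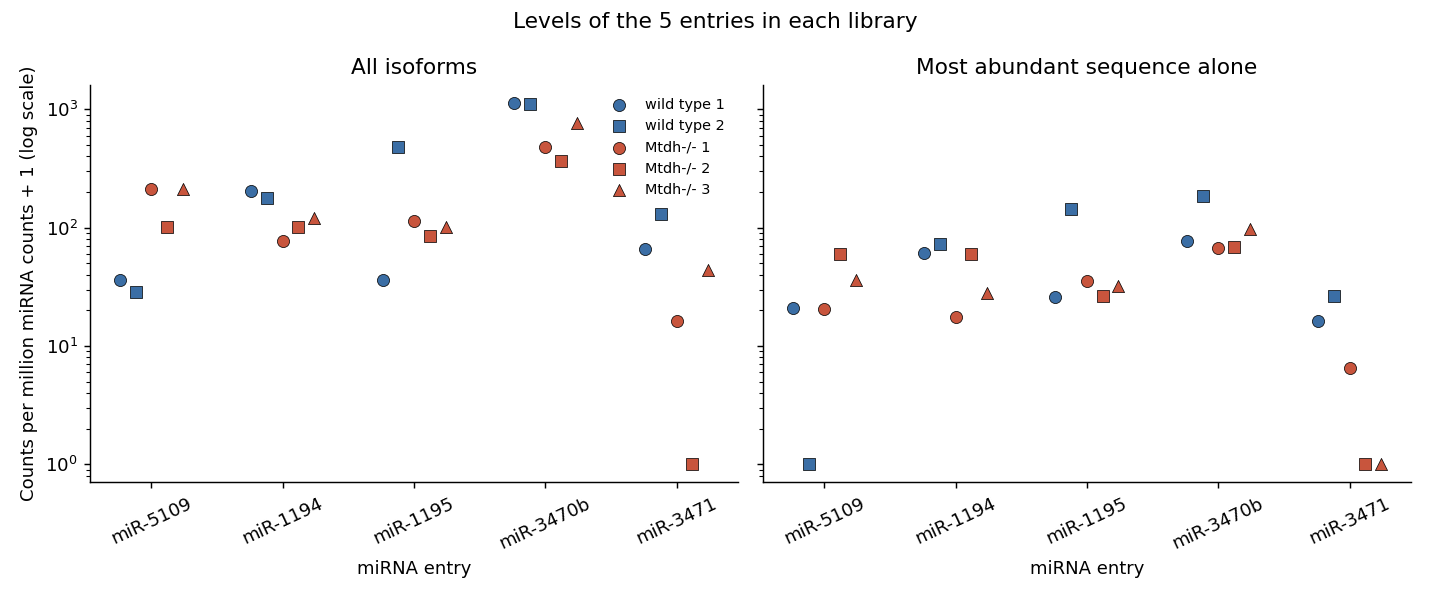
Level of each entry in each library (y axis, CPM + 1, log scale), for all isoforms (left) and for the most abundant sequence alone (right), wild type in blue and Mtdh-/- in red. Points at 1 are libraries with no listed count. miR-5109 is separated by genotype on the left and overlaps on the right, where wild type 1 and Mtdh-/- 1 are nearly level, and wild type 2 stands apart in miR-1195 in both panels.

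Counted as the most abundant sequence, 9 of the 246 miRNAs (3.66%) lay above in every Mtdh-/- library and 19 (7.72%) below, against 12 and 23 for all isoforms. Of the 4 entries whose groups did not overlap for all isoforms, miR-1194 and miR-3471 still did not overlap for the most abundant sequence of the raw sheet, and miR-5109 and miR-3470b did. For miR-3471 this holds for the 30-base sequence and not for the 16-base sequence of the normalized sheet. With counts of the exact mature sequence none of the 5 passed the filter on low counts.

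**Figure D5:**
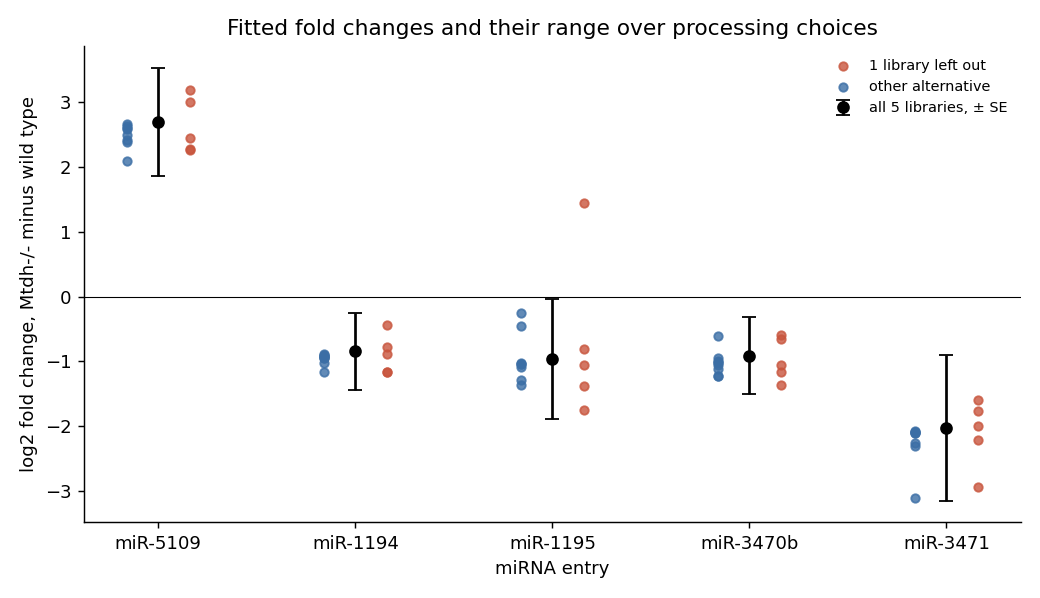
Fitted log2 fold change of each entry, Mtdh-/- minus wild type (y axis), as black points with SE bars, beside the values with 1 library left out (red) and under the other alternatives (blue). miR-1195 crosses 0 when wild type 2 is left out, at 1.44, and miR-5109 stays between 2.08 and 3.19.

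Other tested miRNAs with the most similar pattern over the 5 libraries were found by the distance between log2 CPM values centred on each miRNA's mean. miR-3470b lay nearest to miR-184-3p (distance 0.26) and miR-192-5p (0.27), against a median distance of 2.23 to all others. miR-1194 lay nearest to miR-106b-3p (0.27) and miR-340-5p (0.41), against a median of 1.97. For miR-1195 the nearest were miR-470-5p (0.85), a miRNA of germ cells that had 40405 CPM in wild type 2 and 6942 to 11543 CPM elsewhere, and miR-669c-5p (1.05), against 2.74. The nearest to miR-5109 were miR-511-3p (1.38) and miR-215-5p (1.55), against 3.20, and to miR-3471 miR-1a-3p (1.62) and miR-547-3p (1.85), against 3.82. Within the 5 entries the closest pair was miR-1194 with miR-3470b (0.72) and the most distant was miR-5109 with miR-3471 (5.27).

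The close copy of miR-3470b, miR-3470a, is shown because it differs from it by C6T alone, with the base of miR-3470b first, a position inside the seed.
miR-3470a mature: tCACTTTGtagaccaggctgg
miR-3470a most abundant: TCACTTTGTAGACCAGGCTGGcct
miR-3470a had 176 and 710 counts in wild type and 469, 50 and 239 in Mtdh-/-, or 886, 1495, 651, 422 and 925 CPM. The groups overlapped, since Mtdh-/- 3 lay above wild type 1. The ratio of miR-3470b to miR-3470a counts was 1.28 in wild type 1 and 0.744 to 0.860 in the other 4 libraries. The sheet does not say how a sequence that fits both entries was counted, so the split between them is uncertain. miR-1195 and the reverse complement of miR-3470b share the 8-base run CCAGCCTG.

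Entries with numbers near those of the 5, from miR-1186 to miR-1199, miR-3470 to miR-3475 and miR-5097 to miR-5136, were set beside them. They were picked by number alone and were not classed as doubtful or repeat-derived. Besides the 5, the sheet held 35 of them, 25 with a count, of which 4 were tested. The most abundant sequence was the mature sequence in 2 of these 25, against 214 of the 482 other counted miRNAs. An exact mature count of 0 was listed for 21 of the 25, against 174 of the 482. Here too a listed 0 does not show that the mature sequence was absent. In miR-5101, of the 25, and miR-1298-5p, of the 482, the most abundant sequence is the mature one, with 3 and 17 counts. The exact mature count of both is listed as 0. The groups were not matched for level: only 4 of the 25 passed the filter on low counts, and a listed 0 was rarer among the 241 tested miRNAs above, 17 of them. The 4 tested were miR-5099, miR-3470a, miR-5097 and miR-1198-5p, with a median log2 fold change of -0.16 against 0.19 over all tested miRNAs. Of these, 1 lay below in every Mtdh-/- library and 0 above. miR-5099 had 962 and 1700 CPM in wild type and 857, 498 and 952 CPM in Mtdh-/-, and its most abundant sequence started 2 bases upstream. miR-5097 had a most abundant sequence of 17 bases that started 7 bases downstream. miR-1198-5p stood apart from these, with 75 of 111 counts (67.6%) in the exact mature sequence. miR-1186a, the fifth most abundant of them, had 46 counts, and its most abundant sequence occurred in 325 genes on the same strand. miR-5115, named after its values were seen, was counted in Mtdh-/- 1 (14 counts) and Mtdh-/- 3 (17 counts) and in none of the other 3 libraries.

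The authors' deposited piRNA tables list 4539 different piRNAs past a fold threshold. A run of 14 or more bases was shared with 1 of the 5 entries by 4 of them, each time with the strand opposite to the miRNA. Capitals mark the shared run in the pair shown, the longest run and the one that also resembles a second entry.
mmu_piR_007464: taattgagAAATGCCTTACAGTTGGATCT
mmu_piR_009079: tcactctgaagacCAGGCTGGCCTCGAcct
mmu_piR_007464, of 29 bases, shares 21 bases with the reverse complement of the most abundant sequence of miR-3471. In the authors' deposited table it has 26.5 normalized tags in Mtdh-/- 2 against 2.6 and 5.5 in wild type 1 and 2. mmu_piR_009079 shares 14 bases with the reverse complement of miR-1195, and from its first base it equals miR-3470b but for T9A, with the base of the miRNA first. The authors' deposited table gives it 7.5, 12.6 and 8.5 normalized tags in Mtdh-/- 1, 2 and 3 and 3 and 2.7 in wild type, with a fold score of 1.52. mmu_piR_004801 also shares 14 bases with the reverse complement of miR-1195, and in the authors' deposited table it has 15 in Mtdh-/- 2 against 66.3 and 16.3 in wild type. mmu_piR_022956 shares 16 bases with the reverse complement of the most abundant sequence of miR-5109, and has 41.9 in Mtdh-/- 2 against 5.3 and 15.5 in the authors' deposited table. These tables hold only piRNAs past the authors' threshold, so the values for mmu_piR_009079 come from all 5 libraries and those of the other 3 from a comparison of Mtdh-/- 2 alone.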

How the data were processed

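Total RNA came from testes frozen on removal (mirVana extraction, TruSeq libraries), per the labels' protocols. Novoalign 2.07.11 is named in the submitters' processing notes, with the build, the trimming and the rule for counting tags not given in the sources used here. The authors' counts, per the file headers, are raw tag numbers of all isoforms, of the most abundant and of the exact mature sequence. A blank was read as 0, and the smallest count was 2. A second deposited sheet holds the authors' normalized tags, in whole numbers near a fixed multiple of the counts in each library, treated as a score. The authors' miRNA tables give a fold ratio and, for group tables, a p-value, and their piRNA tables hold normalized tags (a signal of unstated scaling) and a signed fold score. A further 174 columns of per-library values were not used.

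For a miRNA with several lines the one with the largest total was kept (846 lines, 736 miRNAs). A further 19 miRNAs had the same most abundant sequence as one with a total at least as large. They were left out and their counts were not added to it, leaving 717. All isoforms were fitted over the 5 libraries with edgeR 4.0.16 under R 4.3.3 (robust quasi-likelihood test, TMM, filterByExpr, Benjamini-Hochberg threshold 0.05). The same fit was first run on simulated counts, from which no result is used here. The fit to the deposited counts had a biological coefficient of variation of 0.696, and the median SE of a log2 fold change was 0.77. Each SE was worked back from the test, as the absolute log2 fold change divided by the square root of the F statistic. No 2 libraries agreed within counting noise, with a chi-square per degree of freedom of at least 52.1. Sequences were matched exactly to GENCODE M21, and RefSeq sequences are of GRCm38.p6. Alternatives were DESeq2 1.42.0, limma 3.58.1 on log2 of the authors' normalized tags + 10, other scalings, no filter, other count columns, summed lines, a replicate block and leaving out each library. The entries, the marker list and the naming rule (the 5 entries, the 5 most abundant miRNAs, 2 nearest patterns per entry by log2 CPM with prior count 2, and the 5 most abundant near-numbered entries) were chosen with earlier results of these data known.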

Additional observations from a re-analysis of the deposited data

How the results depend on the processing

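With no filter on low counts 512 miRNAs were fitted and 3 were called higher and 2 lower, none of them among the 5 entries; every other alternative called 0, as did each fit without 1 library (0 to 0 in either direction). Leaving out 1 library moved the log2 fold change of miR-1195 between -1.74 and 1.44 and that of miR-1194 between -1.17 and -0.43, the largest shifts against their spread between libraries. Upper-quartile scaling, which moved the median of all miRNAs by -0.34, gave miR-1194 -1.16. The other values, including the shares of the exact mature and most abundant sequence, moved by less than the spread between libraries. The ranges without 1 library were 2.26 to 3.19 for miR-5109, -1.37 to -0.59 for miR-3470b and -2.94 to -1.59 for miR-3471. The cause of these shifts was not tested. Replicate numbers were shared by 2 pairs, whose deviations correlated at -0.44 and 0.10. With 2 wild-type libraries the deviations mirror each other, so these values cannot show whether the numbers pair the samples. With a replicate block 0 were called, and the log2 fold changes of miR-1195 and miR-3471 were -0.25 and -3.10. Depth limits miR-3471 most, with 97 counts in all and none listed in Mtdh-/- 2.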
